A study of Mus musculus with 11 samples.

Results

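The keratin gene family comprised 50 of the 19965 endogenous probes of the count table (0.250%), chosen as all targets named Krt followed by digits alone. Names with a letter after the digits, such as Krt6a and Krt33b, fall outside that rule. Of the 50 members, 26 are type I and 24 are type II keratins, and each was measured by 1 probe. They were sorted into luminal and other simple epithelial keratins (6), basal keratins (4), suprabasal epidermal keratins (8), keratins of other stratified epithelia (5), the sebaceous keratin Krt79, keratins of the inner root sheath and companion layer of the hair follicle (8), hair shaft keratins (14) and unclassified members (4). In RefSeq, 49 members were matched by gene ID, 25 on chromosome 11, all type I, and 24 on chromosome 15, where Krt18 was the type I gene.

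Keratins are the intermediate filament proteins of epithelial cells. A filament is built from pairs of a type I and a type II chain, so keratins are made in partner pairs, and the pair in use marks the kind of epithelium. In the mammary gland the luminal cells of ducts make Krt8, Krt18 and Krt19, while the surrounding basal or myoepithelial cells make Krt5 and Krt14. Skin above the gland makes further pairs in its upper layers, hair follicles and sebaceous glands, and fibroblasts usually carry filaments of vimentin in place of keratin.

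The samples were 11 tissue regions of naive mammary gland from 3 periostin lineage tracing mice, in which the green reporter ZSGreen marks cells that express or once expressed periostin, a matrix protein of stromal cells. ZSGreen-positive segments were collected with the GeoMx platform, which releases probe barcodes from a lit area of a section, next to podoplanin stain (Pdpn-adjacent, a marker of lymphatic vessels, regions 2, 3, 4, 7, 8 and 11, n = 6) or next to smooth muscle actin stain (SMA-adjacent, ducts and blood vessels, regions 1, 5, 6, 9 and 10, n = 5). The labels give no further allele, treatment or age, and both groups share the reporter and the naive state. The labels do not say which mouse a region came from, and with 6 and 5 regions from 3 mice some came from the same animal. Every p-value over regions given here can therefore be too small.

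Total counts ran from 760761 to 3086323 in the SMA-adjacent regions and from 22757 to 2271664 in the Pdpn-adjacent ones, where regions 2, 3 and 11 had 22757, 81760 and 30316. No value is 0, and the lowest value of 1 was held by 46 of the 50 keratins in region 2 and 42 in region 11, beside 90.0% and 77.6% of all probes. Fibroblast markers, of the stromal cells the segments were drawn around, stood at a mean of 3.80 to 9.29 times background in the SMA-adjacent regions and 0.952 to 6.78 times in the Pdpn-adjacent ones. Markers of skeletal muscle ranged from 0.990 to 57.4 times background in the Pdpn-adjacent regions and from 1.00 to 8.12 in the SMA-adjacent ones. The lymphatic endothelial markers were at 0.809 to 1.69 times background next to Pdpn and 1.38 to 1.68 next to SMA. Adipocyte markers lay between 1.17 and 33.2 next to Pdpn and between 13.1 and 36.8 next to SMA, and blood endothelial markers between 0.952 and 3.19 and between 1.92 and 4.17. Of these 5 lists, 0 genes passed the adjusted threshold in edgeR, while at an unadjusted p under 0.05 6 fibroblast and 3 blood endothelial genes were lower (3.19% of all probes) and 6 skeletal muscle genes higher (2.84% of all probes) next to Pdpn.

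Most keratins were at background. A level here is a probe's count divided by the geometric mean of the 210 negative-control probes of its region, so a level of 1 is background. Of 400 keratin values in the 8 regions above 100000 counts, 369 (92.3%) were below 2 times background. The median keratin lay between 0.889 and 1.41 times background over the 11 regions. The median of all probes was also low, between 0.889 and 1.53, so such levels are not particular to keratins. Keratins took 0.152% to 0.317% of a region's counts. The floor of a region was set at the mean plus 2 SDs of its log2 negative-probe counts. By that floor 4 keratins (Krt2, Krt8, Krt18 and Krt19) were above the floor in at least 2 regions, 8.0% of the family beside 22.6% of all probes, and 13 keratins were above it in at least 1 region, beside 42.2% of all probes. In the segments the number of keratin-making cells and the keratin RNA per cell cannot be told apart.

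The number of keratins above the floor differed between regions, as did that of all probes, and in every region the keratin share was the lower. Regions 4 and 8, both Pdpn-adjacent, held the same 4 (8.0%), Krt2, Krt8, Krt18 and Krt19, where 9.23% and 10.2% of all probes were above the floor. Region 11 held 8 (16.0%), where 22.4% of all probes were above it. Region 2 held 4 (8.0%), Krt19 with 4 counts and Krt42, Krt77 and Krt81 with 2 each, where 10.0% of all probes were. In regions 2 and 11 a probe with 2 counts passes the floor. None was above the floor in regions 3 and 7 (2.77% and 5.73% of all probes). The SMA-adjacent regions 1, 6 and 10 held 2 each (4.0% of the family, beside 12.2%, 12.5% and 19.2% of all probes). Regions 5 and 9 held 1 each (2.0%, beside 8.79% and 19.1%).

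**Figure D1:**
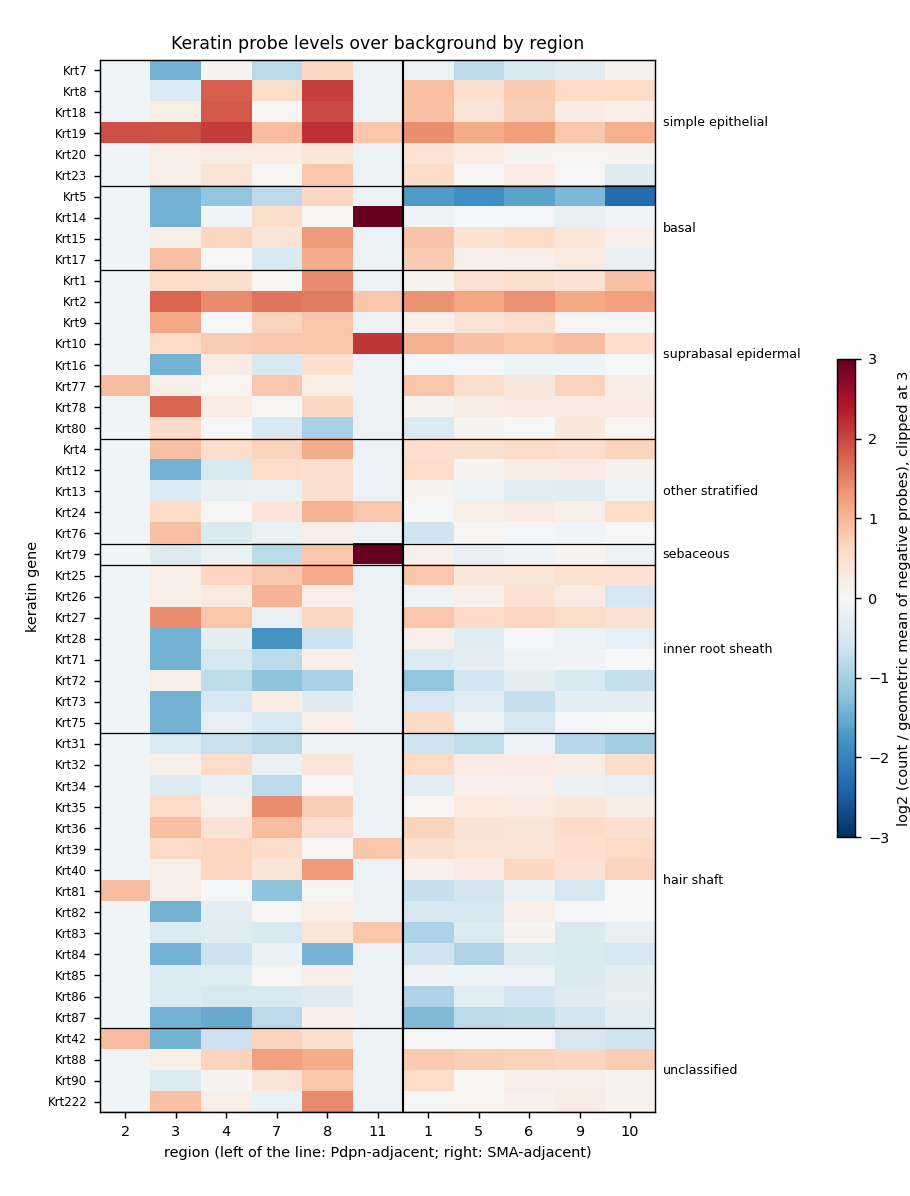
Heat map of the level of each of the 50 keratins (rows, by class) in each of the 11 regions (columns, by group), as log2 of the count over the geometric mean of the negative probes, with the colour scale ending at 3. Most cells are near background, while Krt8, Krt18 and Krt19 stand out in regions 4 and 8 and Krt14 and Krt79 in region 11.

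No keratin passed the adjusted threshold between Pdpn-adjacent and SMA-adjacent regions. With edgeR's quasi-likelihood test and Benjamini-Hochberg adjustment over 19935 probes, 0 of 50 members were called, where 0.0100% of all probes were called higher and 0% lower. The limma-voom fit called 0 of 50, and DESeq2 called 0 of the 4 keratins it gave an adjusted p, leaving 46 without one. These tests treat regions as independent although some share a mouse. At an unadjusted p under 0.05 in edgeR, 6 members were higher next to Pdpn (Krt8, Krt18, Krt19, Krt7, Krt5 and Krt23), 12.0% of the family beside 2.84% of all probes, and 1 was lower (Krt12), 2.00% beside 3.19%. The median log2 fold change, Pdpn-adjacent minus SMA-adjacent, was 0.09 over the 50 keratins and 0.01 over all probes. Of the members, 35 were positive and 15 negative (70.0% positive, beside 51.2% of all probes).

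**Figure D2:**
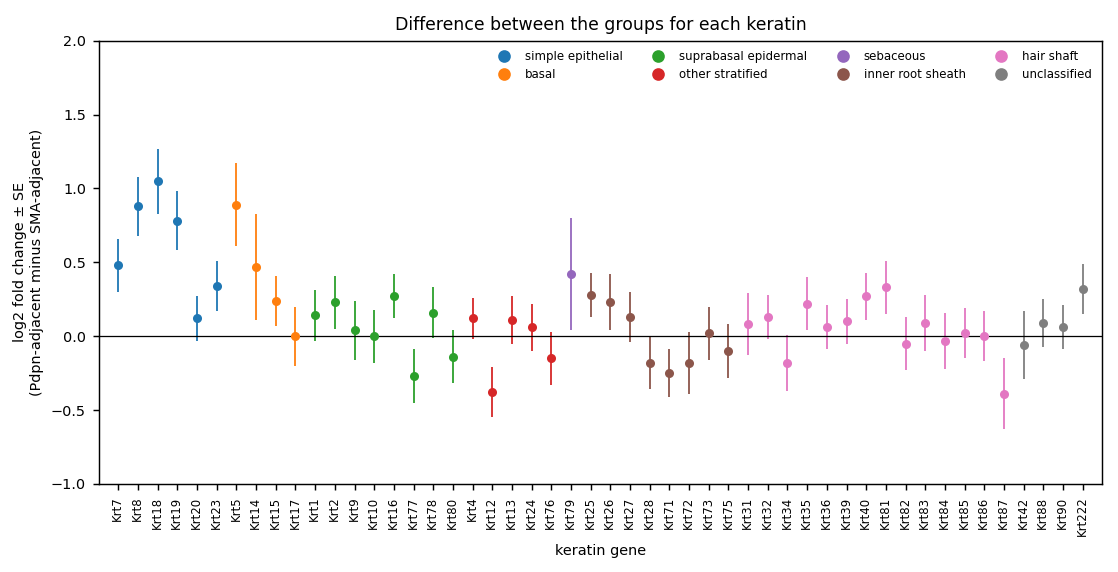
Log2 fold change of each keratin, Pdpn-adjacent minus SMA-adjacent, with bars of 1 standard error from the edgeR fit, grouped by class. The simple epithelial keratins reach from 0.12 to 1.05 with all 6 above 0, whereas the hair keratins lie on both sides of 0.

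The luminal simple keratins had the highest class median in the edgeR fit, 0.63, against 0.36 for the basal class and 0.42 for Krt79. That order was not kept under DESeq2 (0.53, 0.72 and 2.10) or limma-voom (0.38, 0.40 and 0.59). All 6 members were positive in edgeR, and 5 of them were among the 6 members higher at an unadjusted p under 0.05. Krt8 is the type II and Krt18 the type I chain of the filament pair of simple epithelia, and Krt19 and Krt7 are their type I and type II companions in ducts. The Krt8 and Krt18 genes lie 23873 bases apart on chromosome 15, and the probes read chr15:102001531-102001565 and chr15:102029468-102029517 of GRCm38.p6.

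In the Pdpn-adjacent regions Krt8 stood at 3.47 times background in region 4 (266 counts) and 4.22 times in region 8 (33 counts), and at 0.952, 0.750, 1.46 and 0.889 times in regions 2, 3, 7 and 11. The SMA-adjacent levels of Krt8 were 1.86, 1.42, 1.71, 1.51 and 1.52 in regions 1, 5, 6, 9 and 10. Regions 4 and 8 were thus above every SMA-adjacent region and 3 of the other 4 Pdpn-adjacent regions were below every one, so the groups overlapped. The exact 95% Poisson intervals were 3.06 to 3.91 in region 4 and 2.90 to 5.92 in region 8, and such intervals cover counting error only. In counts scaled to a common library size (CPM), Krt8 averaged 61.2 ± 40.0 (SD, n = 6) next to Pdpn and 49.6 ± 5.21 (SD, n = 5) next to SMA. Its log2 fold change was 0.88 ± 0.20 (SE; edgeR, adjusted p = 0.127), and limma-voom gave 0.54. With every region weighted equally the difference in mean log2 CPM was 0.07, with an exact two-sided permutation p of 0.881. Krt8 held the lowest value of 1 count in regions 2 and 11, where 1 count is worth 37.5 and 34.3 CPM. That difference is therefore partly set by the lowest value of the table, and its p does not show that the groups are alike.

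Krt18 had the same 3 highest regions as Krt8, in the order 8, 4 and 1. Its levels were 3.60 in region 4 (276 counts) and 3.96 in region 8 (31 counts), 0.952, 1.13, 1.02 and 0.889 in regions 2, 3, 7 and 11, and 1.86, 1.31, 1.67, 1.18 and 1.14 in SMA-adjacent regions 1, 5, 6, 9 and 10. Regions 4 and 8 were above every SMA-adjacent region and the other 4 Pdpn-adjacent regions below every one on the level scale, where regions 2 and 11 held 1 count and region 3 held 3 counts. On the CPM scale 1 Pdpn-adjacent region, region 7, was below every SMA-adjacent one. On the log2 scale Krt18 differed by 1.05 ± 0.22 (SE; edgeR, adjusted p = 0.0781), with 60.5 ± 39.4 CPM (SD, n = 6) against 44.4 ± 10.1 (SD, n = 5), and limma-voom gave a difference of 0.55. The difference in mean log2 CPM was 0.25, with an exact permutation p of 0.504, and as for Krt8 it is partly set by the 1 count of regions 2 and 11. Counts of Krt8 per count of Krt18, both from the same region, ran from 0.964 to 1.43 over the 8 regions above 100000 counts, with a median of 1.07. A ratio of counts from different probes is not a ratio of transcripts.

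Krt19 was at 1.75 times background or more in every region. Its SMA-adjacent levels were 2.61, 2.17, 2.38, 1.75 and 2.13 in regions 1, 5, 6, 9 and 10, and its Pdpn-adjacent levels were 3.81 (4 counts), 3.75 (10 counts), 4.32 (331 counts), 1.89, 4.60 (36 counts) and 1.78 (2 counts) in regions 2, 3, 4, 7, 8 and 11. On this scale regions 2, 3, 4 and 8 exceeded every SMA-adjacent region, and regions 7 and 11 lay within the SMA-adjacent range. The values of regions 2 and 3 rest on 4 and 10 counts, where counting error is large, and the floor of region 3 was 10.4 counts. Krt19 averaged 110.8 ± 37.7 CPM (SD, n = 6) next to Pdpn and 68.4 ± 11.0 (SD, n = 5) next to SMA. The fitted difference was 0.78 ± 0.20 on the log2 scale (SE; edgeR, adjusted p = 0.225). The exact permutation p was 0.0476, or 0.629 after Benjamini-Hochberg adjustment over all probes. Krt7 was near background throughout, at 0.375 to 1.53 times next to Pdpn and 0.576 to 1.09 times next to SMA, and differed by 0.48 ± 0.18 on the log2 scale (edgeR, adjusted p = 0.673). Krt23, named after its value was seen, had 0.34 ± 0.17 (edgeR, adjusted p = 0.826).

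**Figure D3:**
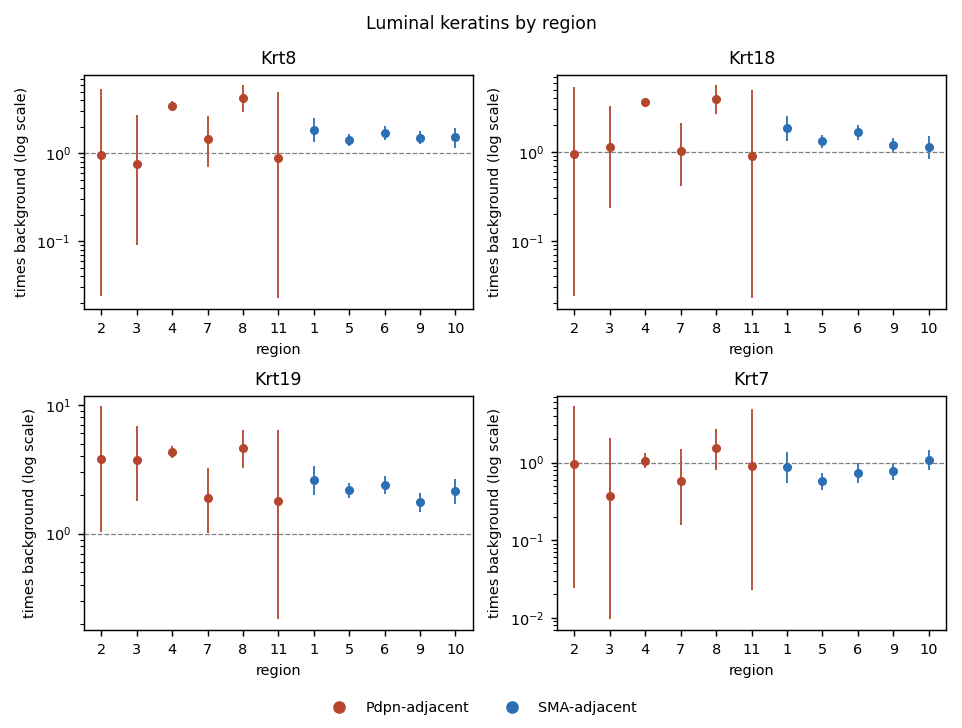
Levels of Krt8, Krt18, Krt19 and Krt7 in each region on a log axis, as counts over the geometric mean of the negative probes, with bars of the exact 95% Poisson interval. Krt8 and Krt18 are above every SMA-adjacent region in regions 4 and 8 alone, while Krt19 is so in regions 2, 3, 4 and 8, with few counts in regions 2 and 3.

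The direction for Krt8, Krt18 and Krt7 rested on regions 4 and 8. These were the 2 highest regions for Krt8, Krt18 and Krt19, so a fall without them follows from the values. The Pdpn-adjacent regions then left, 2, 3, 7 and 11, had 22757, 81760, 225875 and 30316 total counts. Without regions 4 and 8, the log2 fold changes were -0.31 for Krt8, -0.35 for Krt18 and -0.25 for Krt7, and that of Krt19 was 0.34 (edgeR, adjusted p = 0.997). Without region 4 alone they were 0.50 for Krt8 and 0.56 for Krt18 and for Krt19. Without regions 3 and 7, where the skeletal muscle markers averaged 57.4 and 33.8 times background, edgeR called Krt8 (1.11, adjusted p = 0.0115) and Krt18 (1.30, adjusted p = 0.0106). Krt18 was also called without SMA-adjacent region 5 (1.10, adjusted p = 0.0320, edgeR) and without Pdpn-adjacent region 7 (1.21, adjusted p = 0.0202, edgeR). Calls over all probes rose in the same fits, from 2 with all regions to 14 without regions 3 and 7, 53 without region 5 and 13 without region 7.

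The mean level of luminal cell markers was highest in the same regions. All 18 genes of the luminal list, which was chosen with earlier results of these data known, were positive in edgeR. Their median log2 fold change was 0.47, beside 0.01 for all probes. Of these, 14 (77.8%) were higher at an unadjusted p under 0.05 in edgeR, beside 2.84% of all probes. In regions 2 and 11, 16 and 14 of the 18 genes held the lowest value of 1 count, so equal weighting of regions leans on that value. With every region weighted equally, the exact permutation p ran from 0.0368 for Csn3 to 0.989 for Elf3 over the 18 genes. It was 0.0563 for Foxa1, 0.794 for Gata3 and 0.898 for Epcam. The list's mean level was 2.02 times background in region 4 and 2.26 in region 8, against 1.03 to 1.54 in the other 9 regions. The median of all probes was 1.23 in region 4 and 1.53 in region 8, where it was highest. In regions 4 and 8, 6 and 4 of the 18 genes were above the floor, beside 9.23% and 10.2% of all probes. Region 8 also held the highest mean of the hemidesmosome (1.84) and hair follicle (1.30) lists. Epcam, the surface adhesion protein of epithelial cells, stood at 4.46 and 5.11 times background in regions 4 and 8, and Gata3, the luminal transcription factor, at 2.80 and 4.22. Both were named after their values were seen, and not every list gene was highest there. Elf3 was at 2.45 and 2.30 in regions 4 and 8 and 3.75 in region 3, and Elf5 at 1.79, 1.53 and 2.63. Csn3 was at 2.40, 2.04 and 2.63 in the same regions, though no list gene was above the floor in region 3. Csn3, the milk protein kappa casein, was the 1 list gene past the threshold, at 0.98 ± 0.17 (edgeR, adjusted p = 0.0413), followed by Foxa1 (0.75 ± 0.14) and Prlr (0.88 ± 0.17), each with an adjusted p of 0.0620. The call of Csn3 was kept in edgeR without the filter, with RLE factors, without regions 3 and 7 and without region 5, 7 or 8 alone. It was lost under negative-probe scaling (adjusted p = 0.140), limma-voom (0.152), without regions 2, 3 and 11 (0.0866), without regions 4 and 8 (0.997) and without any 1 of the other 8 regions (0.0528 to 0.770), and DESeq2 gave it no adjusted p. The part of luminal cells or their RNA in the values of Krt8, Krt18 and Krt19 was not tested.

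The start regions of Krt8 and Krt18 are shown because these partner genes were high in the same regions and lie beside each other, the type I gene Krt18 at the type II cluster. Each run is the 250 bases before the RefSeq gene start on the gene's own strand (GRCm38.p6), Krt8 at chr15:102004343-102004592 on the minus strand and Krt18 at chr15:102027966-102028215 on the plus strand. Capitals mark matches, on either strand, to any of 7 motifs. These were the TATA box as TATAA, the GC box of Sp1 factors as GGGCGG, the CCAAT box, the site of GATA factors as GATAA, the E-box as CACCTG, the element of AP-1 factors as TGANTCA and the element of forkhead factors as TGTTTAC.
Krt8: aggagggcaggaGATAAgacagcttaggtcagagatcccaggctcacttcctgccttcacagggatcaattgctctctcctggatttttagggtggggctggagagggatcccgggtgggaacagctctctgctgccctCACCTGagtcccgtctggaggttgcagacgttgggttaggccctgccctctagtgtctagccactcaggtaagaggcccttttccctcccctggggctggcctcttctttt
Krt18: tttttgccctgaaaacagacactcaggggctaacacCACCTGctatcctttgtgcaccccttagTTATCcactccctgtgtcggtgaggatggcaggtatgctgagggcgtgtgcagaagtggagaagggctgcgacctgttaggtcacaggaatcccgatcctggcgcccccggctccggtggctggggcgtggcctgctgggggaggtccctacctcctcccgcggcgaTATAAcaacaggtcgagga
Both windows held GATAA, first base 238 bases before the start in Krt8 and 186 in Krt18, and CACCTG, 111 and 214 bases before. Krt18 also held TATAA at 19 bases before the start, and Krt8 had no match to it in its window. Among all 32851 windows of this length, 22.6% held GATAA, 17.2% CACCTG and 22.8% TATAA, and among the 36 windows found for 35 keratins the shares were 52.8%, 38.9% and 63.9%. CCAAT was in 38.9% of keratin windows and 33.9% of all, GGGCGG in 5.56% and 32.7%, TGANTCA in 5.56% and 6.75%, and TGTTTAC in 0% and 3.17%. TATAA and GATAA differ in their first letter alone, and the motifs were chosen after the values were seen. A match is a description of letters and not of binding.

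The basal keratins split between a member near the lowest values and a member high in 1 region. Krt5, the type II chain of basal and myoepithelial cells, was below background in 10 of 11 regions, with levels of 0.310, 0.279, 0.327, 0.394 and 0.203 in SMA-adjacent regions 1, 5, 6, 9 and 10. Next to Pdpn it was at 0.952, 0.375, 0.443, 0.582, 1.53 and 0.889 in regions 2, 3, 4, 7, 8 and 11, where regions 2, 3 and 11 held the lowest value of 1 count. In CPM the Pdpn-adjacent mean was 26.2 ± 12.4 (SD, n = 6) against 9.37 ± 2.17 (SD, n = 5), and all 6 Pdpn-adjacent regions were above every SMA-adjacent one. Krt5 was the 1 keratin whose groups did not overlap, 2.00% of members, where 0.446% of all probes did not overlap with the Pdpn-adjacent group higher and 0.838% in either direction. Its exact permutation p was 0.00866, or 0.609 adjusted over all probes, and its log2 fold change was 0.89 ± 0.28 (edgeR, adjusted p = 0.517).

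That separation of Krt5 was not seen on the level scale, where region 3 (0.375) was below SMA-adjacent region 9 (0.394). A single count is worth 37.5 CPM in region 2, 12.3 in region 3 and 34.3 in region 11, against 0.307 to 4.66 in the other 8 regions, so in these 3 regions the CPM of Krt5 is that of the lowest value the table holds. Krt15, a keratin of basal cells and of the follicle bulge, had levels of 0.889 to 2.43 next to Pdpn and 1.12 to 1.81 next to SMA (0.24 ± 0.17, edgeR). Krt17, of follicle and wounded skin, had 0.728 to 2.17 and 0.863 to 1.72 (0.00 ± 0.20, edgeR).

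Krt14, the type I partner of Krt5, and Krt79, a keratin of the sebaceous duct and upper hair follicle, were high in a single region. Krt14 was at 16.9 times background in Pdpn-adjacent region 11 (19 counts, 95% Poisson interval 10.2 to 26.4) and at 0.952, 0.375, 0.952, 1.46 and 1.02 in regions 2, 3, 4, 7 and 8. SMA-adjacent levels were 0.929, 0.981, 0.965, 0.857 and 0.939 in regions 1, 5, 6, 9 and 10. Outside region 11 Krt14 was at or near background in both groups.

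Krt79 was at 17.8 times background in region 11 (20 counts, interval 10.9 to 27.5) and at 0.952, 0.750, 0.874, 0.582 and 1.79 in regions 2, 3, 4, 7 and 8. Its SMA-adjacent levels were 1.11, 0.846, 0.933, 1.07 and 0.888 in regions 1, 5, 6, 9 and 10. In region 11 only 43 of all probes (0.215%) had 19 or more counts and 37 (0.185%) had 20 or more.

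Neither difference between the groups passed a test, and 5 of 6 Pdpn-adjacent regions lacked the high values. Krt14 averaged 134 ± 253 CPM (SD, n = 6) next to Pdpn and 29.0 ± 3.15 (SD, n = 5) next to SMA, with a log2 difference of 0.47 ± 0.36 (edgeR, adjusted p = 0.961) and an exact permutation p of 0.610 over the 6 and 5 regions. Krt79 averaged 140 ± 267 (SD, n = 6) and 29.9 ± 2.74 (SD, n = 5), with 0.42 ± 0.38 (edgeR, adjusted p = 0.986) and an exact permutation p of 0.621. Without region 11 the log2 fold changes were 0.11 for Krt14 and 0.02 for Krt79, without region 4 they were 1.08 and 1.14, and without regions 4 and 8 they were 1.64 and 1.44. DESeq2 gave 2.07 for Krt14 and 2.10 for Krt79, each with an adjusted p of 0.636.

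**Figure D4:**
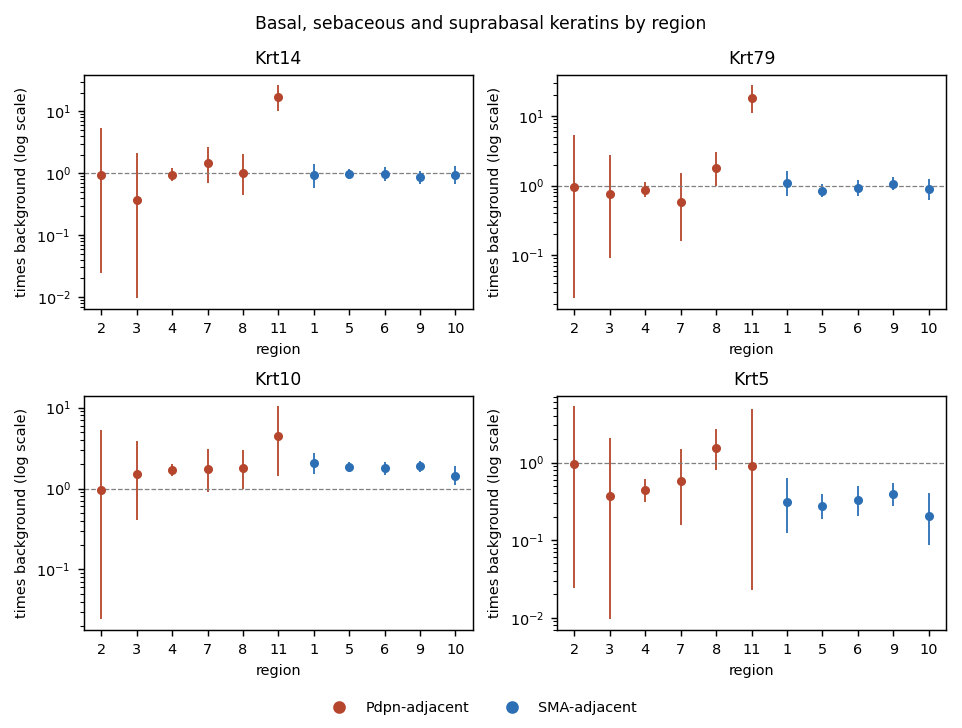
Levels of Krt14, Krt79, Krt10 and Krt5 in each region on a log axis, as counts over the geometric mean of the negative probes, with bars of the exact 95% Poisson interval. Krt14 (16.9) and Krt79 (17.8) stand above all other regions in region 11, Krt10 (4.45) less so with a wide interval, and Krt5 does not.

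The other keratins above the floor in region 11 had few counts. Krt10, the type I keratin of the upper epidermis, had 5 counts there, 4.45 times background with an interval of 1.44 to 10.4, while its other Pdpn-adjacent levels were 0.952 to 1.79 and its SMA-adjacent ones 1.45 to 2.08. Krt2, Krt19, Krt24, Krt39 and Krt83 had 2 counts each, named after their values were seen. Krt5 and Krt1, the type II partners of Krt14 and Krt10, were at the lowest value of 1 in region 11. With 30316 counts in that region, a value of 1 does not show that a keratin is absent.

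Sebaceous markers were high in the same region. The list of 15 sebocyte and preputial lipid genes had a mean level of 11.1 times background in region 11 against 1.02 to 2.55 in the other 10 regions. Of the 15, 14 were above the floor there, beside 22.4% of all probes, and a probe with 2 counts passes that floor. As this list was chosen with earlier results of these data known, its height in region 11 is not independent of them. Elovl4, which elongates very long fatty acids, reached 182 counts (162 times background), and Fa2h, which hydroxylates them, 47 counts (41.8 times). Scd3, a desaturase of sebaceous glands named after its value was seen, had 35 counts (31.1 times) and Far2, which makes fatty alcohols, 32 (28.5 times). Other list genes were not particular to region 11. Scd1 was at 166 times there and 213 in region 7, Mgst1 at 24.9 there and 23.3 in region 10, and Mc5r was at the lowest value of 1 count. The cornified envelope list averaged 1.47 times background there, with 3 of 16 genes above the floor (Sbsn with 40 counts, Dmkn with 15 and Calml3 with 5) and the other 13, Lor, Flg, Ivl and Krtdap among them, at the lowest value of 1. The hair follicle list was at 0.970 times background in region 11, with 2 of 16 genes above the floor, and the luminal list at 1.04. Between the groups 0 of the 15 sebaceous genes passed the threshold, with Elovl4 at 4.16 ± 1.00 (edgeR, adjusted p = 0.156), 1 at an unadjusted p under 0.05 and a list median of 0.08. Elovl4 was called without regions 4 and 8 (5.00; edgeR, adjusted p = 0.0312) and was at 0.07 without region 11. The fit without regions 4 and 8 called 13 of all probes, against 2 with all regions. The part of sebaceous cells in the values of Krt14 and Krt79 was not tested.

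**Figure D5:**
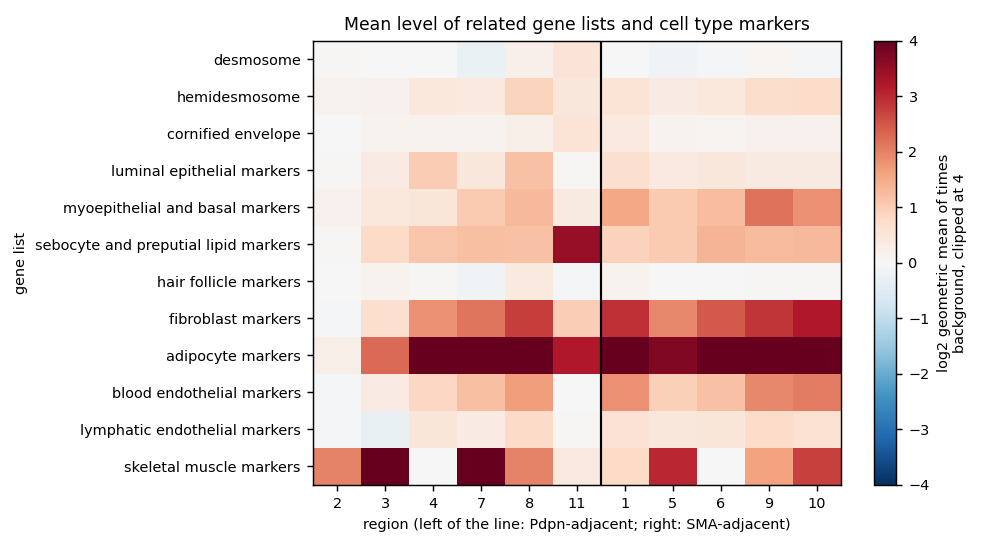
Geometric mean level over background of 12 gene lists in each region, with the colour scale ending at 4 on the log2 scale. The sebocyte list is highest in region 11 (11.1) and the luminal list in regions 4 and 8 (2.02 and 2.26).

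The start regions of Krt14 and Krt79, printed because these are the members high in region 11, share no marked motif. They are the 250 bases before the RefSeq start, Krt14 at chr11:100206031-100206280 and Krt79 at chr15:101940325-101940574, both on the minus strand of GRCm38.p6, with the same motifs in capitals.
Krt14: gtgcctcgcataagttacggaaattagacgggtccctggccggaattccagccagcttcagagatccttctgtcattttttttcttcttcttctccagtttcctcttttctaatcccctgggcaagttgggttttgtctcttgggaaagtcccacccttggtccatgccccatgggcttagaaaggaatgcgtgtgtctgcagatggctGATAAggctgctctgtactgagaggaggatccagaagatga
Krt79: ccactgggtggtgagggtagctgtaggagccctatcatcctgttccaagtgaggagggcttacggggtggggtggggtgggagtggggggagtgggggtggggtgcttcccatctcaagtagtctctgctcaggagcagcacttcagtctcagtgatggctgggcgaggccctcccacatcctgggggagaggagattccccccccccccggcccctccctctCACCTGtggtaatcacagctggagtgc
Krt14 held GATAA at 41 bases before the start and Krt79 held CACCTG at 27. The probes of the genes read chr11:100204458-100204492 and chr15:101939996-101940031.

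Among the 8 suprabasal epidermal keratins none differed between the groups at an unadjusted p under 0.05 in edgeR, and the class median was 0.09 with 5 of 8 positive. Krt1, the type II keratin of the upper epidermis, had levels of 0.889 to 2.68 next to Pdpn and 1.06 to 1.83 next to SMA (0.14 ± 0.17), and Krt10 had a log2 fold change of -0.00. Krt77 had 0.889 to 1.90 and 1.17 to 1.77 (-0.27 ± 0.18; edgeR, adjusted p = 0.928). Krt2, a keratin of the outer epidermal layers named after its values were seen, was above the floor in 8 of 11 regions, at 0.952 (1 count), 3.38, 2.67, 3.06, 2.94 and 1.78 times in Pdpn-adjacent regions 2, 3, 4, 7, 8 and 11 and at 2.56, 2.26, 2.60, 2.24 and 2.33 times in SMA-adjacent regions 1, 5, 6, 9 and 10. It was the keratin of highest median level (2.56). Its levels in regions 4 and 8 were below those in regions 3 and 7. In regions 3 and 7, however, Krt2 was under the floors of 10.4 and 21.5 counts, where counting error is large. Its probe was the highest keratin of SMA-adjacent regions 5, 6, 9 and 10.

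Keratins of other stratified epithelia were near background. Krt12, the keratin of the cornea, was the 1 member lower next to Pdpn at an unadjusted p under 0.05, with levels of 0.375 to 1.46 against 1.05 to 1.46 and a fitted difference of -0.38 ± 0.17 on the log2 scale (edgeR, adjusted p = 0.779). Krt4, of oesophagus and other moist linings, had levels of 0.889 to 2.17 and 1.39 to 1.60 (0.12 ± 0.14), and Krt24 had 0.952 to 2.04 and 0.973 to 1.47 (0.06 ± 0.16). The class median was 0.06, with 3 of 5 members positive.

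No hair keratin had an unadjusted p under 0.05 in edgeR, and few were above the floor. In the inner root sheath class 4 of 8 members were positive, the median was -0.04, and no member was above the floor in any region. Krt27 (0.13 ± 0.17) and Krt25 (0.28 ± 0.15) had the highest median levels of that class, 1.52 and 1.34 times background. Among the 14 hair shaft keratins 9 were positive, the median was 0.07, and 3 were above the floor in a region, with 2 counts each. Krt39 and Krt36 had the highest median levels, 1.42 and 1.41, with log2 fold changes of 0.10 ± 0.15 and 0.06 ± 0.15, and Krt87 had the most negative fold change of the family, -0.39 ± 0.24 (edgeR, adjusted p = 0.927). Of the 4 unclassified members, Krt88 (0.09 ± 0.16) and Krt90 (0.06 ± 0.15) were near background, at medians of 1.60 and 1.07.

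Many members shared a highest region, as all probes did. Region 8 was the highest region on the level scale for 21 of 50 keratins, while it was so for 28.8% of all probes. Regions 4 and 8 were the top pair for Krt8, Krt16, Krt18 and Krt19, 8.0% of the family beside 1.34% of all probes. The share of keratin counts taken by the simple class was 24.1% in region 4 and 21.2% in region 8, and 7.29% to 16.8% in the others.

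The junctions and envelopes that keratins attach to showed no called gene. Of 16 desmosome genes, which anchor keratin filaments at cell contacts, 0 passed the threshold in edgeR, 3 were higher and 1 lower at an unadjusted p under 0.05, beside 2.84% and 3.19% of all probes, and the median log2 fold change was 0.16. Dsp, the linker from desmosome to keratin, had 0.46 ± 0.16 (edgeR, adjusted p = 0.606), Dsg2, a cadherin of simple epithelia, 0.51 ± 0.18 (adjusted p = 0.657) and Evpl, the envelope linker envoplakin, -0.42 ± 0.16 (adjusted p = 0.759). The 9 hemidesmosome genes, which tie keratins to the basement membrane, had 0 called, 0 at an unadjusted p under 0.05 and a median of 0.08, and the 16 cornified envelope genes had 0, 0 and 0.05. In region 11 the desmosome list averaged 1.44 times background, against 0.834 to 1.16 in the other regions. There 7 of 16 desmosome and 4 of 9 hemidesmosome genes were above the floor, beside 22.4% of all probes, and the rest held the lowest value of 1. Hair follicle genes (16) had 0 called, 0 at an unadjusted p under 0.05 and a median of 0.06. The 12 myoepithelial and basal genes had 0 called in edgeR and 5 lower at an unadjusted p under 0.05, with a median of -0.03. Those of smallest p were the contractile genes Myh11 (-2.51 ± 0.49; edgeR, adjusted p = 0.0668), Mylk (-2.16 ± 0.45; adjusted p = 0.0781) and Tagln (-2.29 ± 0.54; adjusted p = 0.141), which smooth muscle also makes, while the SMA stain was itself used to choose regions. DESeq2 called Acta2, Myh11 and Tagln lower, and edgeR called Myh11, Mylk and Tagln without SMA-adjacent region 5 and Myh11 without Pdpn-adjacent region 7. Over all probes DESeq2 called 17. For edgeR that number was 53 without region 5, 13 without region 7 and 2 with all regions.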

How the data were processed

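The authors deposited raw probe counts, 1 column per region, from GeoMx mouse Whole Transcriptome Atlas probes; the unit was judged from the values, and the steps from reads to counts are not given in the sources used here. Per the file headers, probes were placed on GRCm38.p6. The labels count 12 collected areas, of which 11 were analysed here. Regions were chosen by stain and segmented by ZSGreen, per the labels' protocols. The members and lists were chosen with earlier results of these data known. The labels do not say that regions are separate animals, so p-values measure the spread between regions, part of which may be technical.

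Probes kept by filterByExpr of edgeR 4.0.16 in R 4.3.3 (19935, all 50 keratins among them) were fitted over 11 regions with TMM scaling and the two-sided quasi-likelihood test, with Benjamini-Hochberg adjustment over all of them and a threshold of 0.05. The SE is the one implied by the p. CPM used TMM-adjusted library sizes. Exact permutation tests took the difference in mean log2 CPM (prior count 2) over all 462 groupings, whose smallest p is 0.00216. Negative probes (210) stayed out of library sizes and tests. Levels compare regions within a probe, and levels of different probes are not amounts of transcript. Sequences are from RefSeq windows of GRCm38.p6.

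Named with values were Krt7, Krt8, Krt18, Krt19, Krt5, Krt14, Krt15, Krt17, Krt1, Krt10 and Krt79, any keratin past the threshold, in each direction the 3 with the smallest p, any whose groups did not overlap, the 2 of highest median level in each other class, and up to 3 genes of smallest p per keratin-related list. The 12 lists are those of the report: luminal, myoepithelial and basal, sebocyte, hair follicle, desmosome, hemidesmosome, cornified envelope, fibroblast, adipocyte, blood endothelial, lymphatic endothelial and skeletal muscle. Alternatives were no filter, RLE or negative-probe scaling, DESeq2 1.42.0, limma-voom (limma 3.58.1), other floors, and fits without single or several regions. The fit was also run on simulated counts with changes of known size, drawn at a single dispersion and without regions that share a mouse. The changed probes had higher mean counts, so that run does not show how the fit behaves for probes near the lowest value.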

Additional observations from a re-analysis of the deposited data

Results flagged for a closer look

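Krt14 in Pdpn-adjacent region 11 was 16.9 times background, far from the other 5 regions of its group, which lay between 0.375 and 1.46. Krt79 in Pdpn-adjacent region 11 was 17.8 times background, where the other 5 lay between 0.582 and 1.79. In each case the gap from region 11 to the next region took up more of the group's range on the log2 scale than chance gives in 1 of 20 groups. Of 44 groups of regions examined in this way, 2 stood out, which is no more than chance alone gives at about 1 in 20.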

How the results depend on the processing

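The count of called keratins was 0 with all regions, 2 (Krt8 and Krt18) without regions 3 and 7, and 0 to 1 when single regions were left out. Called genes of the keratin-related lists numbered 1 with all regions, 0 under negative-probe scaling, under limma-voom and without regions 2, 3 and 11, 3 under DESeq2 (Acta2, Myh11 and Tagln, all lower), 6 without regions 3 and 7, 1 without regions 4 and 8 (Elovl4 in place of Csn3), and 0 to 8 when single regions were left out. Calls over all probes moved too. They numbered 2 with all regions, 17 under DESeq2, 14 without regions 3 and 7 and 13 without regions 4 and 8. Leaving out single regions gave 1 to 53, the 53 being without region 5. No keratin had groups that did not overlap on the level scale (0 against 1 in CPM). The count above the floor in at least 2 regions was 4, 6 with a floor of 2 times the negative-probe mean (Krt10 and Krt88 added), 1 with a floor of 3 SDs, and 2 to 4 when single regions were left out, the 2 being without region 4 or region 8.

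Directions turned for 15 of the 22 named keratins under some alternative, and for Krt19, Krt5, Krt14, Krt79, Krt4, Krt25 and Krt88 under none that could be fitted. The fit without regions 4 and 8 turned 11 of the 22, and the Pdpn-adjacent regions it kept had 22757 to 225875 counts. Without regions 4 and 8 the log2 fold changes were -0.25 for Krt7, -0.31 for Krt8, -0.35 for Krt18, -0.12 for Krt15, -0.08 for Krt17, -0.26 for Krt1, 0.18 for Krt10, 0.02 for Krt12, 0.04 for Krt87, 0.19 for Krt77 and -0.14 for Krt27. Krt17 was at 0.00 on the negative side with RLE factors, -0.01 with negative-probe scaling and -0.04 without regions 2, 3 and 11. Krt10 was at 0.01 under DESeq2, under limma-voom and without regions 3 and 7. Under limma-voom Krt87 was at 0.24, Krt27 at -0.11 and Krt39 at -0.04, where the median of all probes was 0.14 and that of the keratins 0.36. Krt36 was at -0.04 without regions 3 and 7. Leaving out single regions moved Krt17 from -0.13 to 0.29, Krt10 from -0.08 to 0.05, Krt12 from -0.49 to 0.02, Krt87 from -0.59 to 0.34, Krt24 from -0.04 to 0.41, Krt27 from -0.19 to 0.23, Krt39 from -0.17 to 0.21, Krt36 from -0.00 to 0.12 and Krt90 from -0.00 to 0.22. Krt5 was left out by the filter in some of these fits and gave 0.65 to 0.91 in the 6 others. The cause of these changes was not tested.

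The counts without regions 2, 3 and 11 for overlap and floor were chosen after seeing the data. No paired analysis was possible because the region numbers are unique and the groups share none. Regions 2 and 11, with 22757 and 30316 counts, show only probes of high level, and a keratin at 1 count there is not shown to be absent.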
